A study of Homo sapiens with 6 samples.

Results

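Ion channel and neurotransmitter receptor genes are the genes by which neurons and muscle fire and by which neurons receive signals, and most of them are kept silent in blood cells. Here their transcripts were followed in K562, a human chronic myeloid leukemia line, with and without inhibition of EZH2. The members were all protein-coding genes of the GENCODE annotation of GRCh38 whose symbols name potassium channels (KCN), sodium channels (SCN followed by a digit), calcium channels (CACN), ionotropic glutamate receptors (GRIA, GRIK and GRIN), GABA-A receptors (GABR) or nicotinic acetylcholine receptors (CHRN), with 1 potassium channel gene left out by the rule. This gave 186 members among the 60671 genes of the count files: 95 KCN, 26 CACN, 19 GABR, 16 CHRN, 16 glutamate receptor and 14 SCN genes.

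Voltage-gated sodium, calcium and potassium channels each have a pore-forming subunit, which opens with a change in membrane potential, and auxiliary subunits that set its traffic and timing. Inward-rectifier and tandem-pore-domain potassium channels hold the resting potential. Glutamate, GABA-A and nicotinic receptors are channels opened by a transmitter and are built from several subunits, so that a single subunit gene may not give a working receptor. EZH2 is the enzyme of Polycomb repressive complex 2 (PRC2), which places H3K27me3 on the chromatin of developmental and tissue-specific genes that are off, many neuronal genes among them.

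The vehicle group (DMSO) and the EZH2 inhibition group (EZH2i) each comprised 3 libraries from separate cultures. All came from 1 K562 clone with a doxycycline-controlled Flag-NLS-M.CviPI-Lamin-B1 transgene, a DNA methyltransferase joined to a nuclear lamina protein. Cells received 0.1% DMSO or 1 µM of the EZH2 inhibitor GSK343 for 72 hours, and both groups received 1 µg/mL doxycycline over the last 24 hours, so that all values describe cells with the fusion induced. QuantSeq 3′ mRNA-seq was used, in which each transcript gives about 1 tag near its polyadenylated end, and levels in CPM, counts scaled by library size, can be set side by side without a correction for gene length. For DMSO, replicates 1, 2 and 3 had 6327544, 8711246 and 8987768 reads on genes. For EZH2i the totals were 7273739, 7913358 and 6926167, and values below follow this order of replicates. EZH2i replicate 3 stood apart in the share of listed reads that fell outside any annotated gene, at 12.7%, where the other 5 libraries had between 7.43% and 8.51%. In a bulk culture, a change in the number of cells that use a gene and a change in RNA per cell cannot be told apart.

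Most of these genes were at or near 0 in K562. No read was found in any of the 6 libraries for 79 of the 186 members (42.5%), which allows a level of up to 0.0653 CPM over the pooled libraries, and another 56 (30.1%) never exceeded 3 reads in a library. A further 22 (11.8%) had more than 3 reads in some library but did not pass the expression filter, and 29 (15.6%) did and were tested. Among the 19725 other protein-coding genes, 25.0% had no read, 38.0% had at most 3 reads in every library and 53.9% were tested, compared with 72.6% of the members at most at 3 reads. The description of these genes as silent in blood cells therefore held for 135 members in these libraries and not for the other 51.

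Whole classes of subunits were silent. The 4 AMPA receptor subunits, which carry fast excitatory transmission, and the 8 calcium channel gamma subunits, a group that includes the AMPA receptor auxiliary proteins, had at most 3 reads in every library. The same limit held for 9 of the 10 pore subunits of voltage-gated calcium channels, none of which was tested, for 8 of the 10 modifier subunits of voltage-gated potassium channels and for 9 of the 11 neuronal nicotinic subunits. *CHRNA4*, *CHRNB2* and *CHRNA7*, which make up the main nicotinic receptors of the brain, had no read. *GRIN1*, the subunit that every conventional NMDA receptor needs, never exceeded 3 reads, whereas its partner *GRIN2D* was the second most abundant member. *SCN1A*, *SCN10A* and *SCN7A* had no read, and *SCN2A* and *SCN3A* had at most 3 in every library. The share tested ran from 7.69% of CACN genes to 21.4% of SCN genes, with 17 of 95 KCN genes tested.

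**Figure D1:**
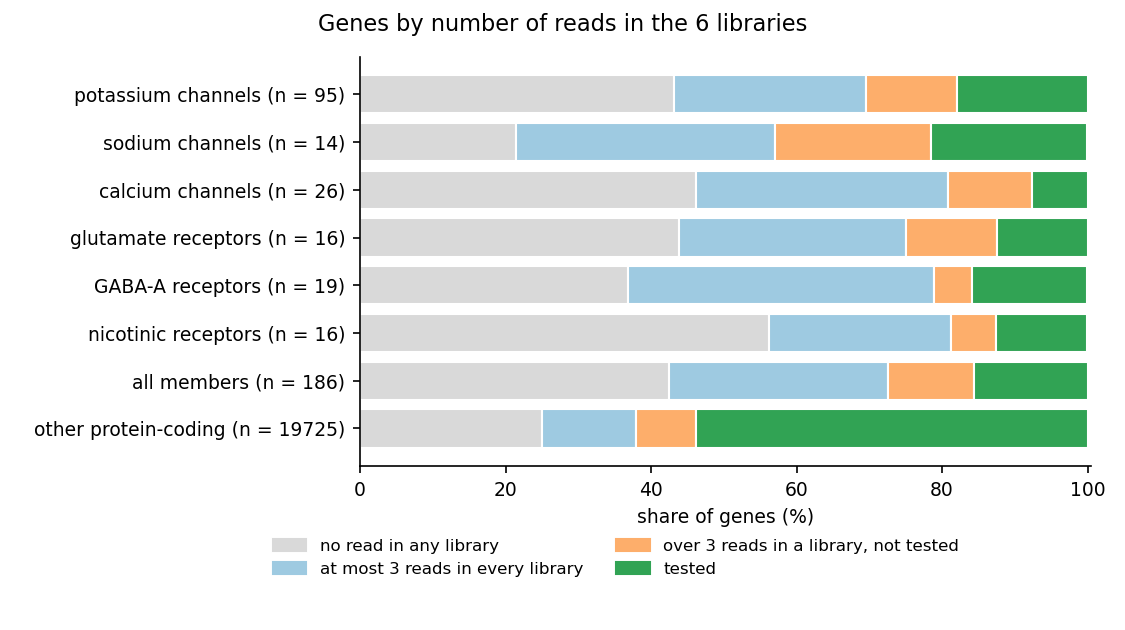
Share of genes (x axis, %) in each of 4 classes of read number, for the 6 families, all 186 members and 19725 other protein-coding genes (y axis). The grey and blue segments, genes with at most 3 reads in every library, make up 72.6% of the members and 38.0% of the other protein-coding genes.

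A handful of members carried most of the signal. *KCNH2* (ENSG00000055118), the pore subunit of a delayed rectifier potassium current of the heart, held 32.9% of the members' summed CPM, and with *GRIN2D* it held 45.6%. Its levels were 165.9, 138.3 and 144.0 CPM in DMSO and 157.0, 141.1 and 147.8 CPM in EZH2i. The groups overlapped, with means of 149.4 ± 14.6 and 148.6 ± 7.97 CPM (SD, n = 3 each), and the log2 fold change was -0.01 with a standard error of 0.105 (edgeR adjusted p = 0.981). *KCNH2* lost its sign, though not its side of the threshold, when DMSO replicate 1 or EZH2i replicate 2 was left out (log2 change 0.07 and 0.03). *GRIN2D* (ENSG00000105464), a glutamate-binding NMDA receptor subunit, was at 48.5, 59.8 and 49.5 CPM in DMSO and 73.3, 54.5 and 58.6 CPM in EZH2i. Here too the groups overlapped, EZH2i replicate 1 lay above all others, and the log2 change of 0.24 did not pass the test (edgeR adjusted p = 0.338).

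Below these, the 5 most abundant members held 63.5% and the 10 most abundant 79.2% of the summed CPM. The tandem-pore-domain channels *KCNK5*, an acid-sensitive background channel, and *KCNK1* had means of 31.9 ± 1.69 and 22.4 ± 4.41 CPM in DMSO (SD, n = 3 each). These levels differed by more than their spread, whereas *KCNK1*, *GABRA3* (20.7 ± 2.12 CPM) and *CHRNA5* (17.4 ± 2.22 CPM) followed one another in DMSO within 1 or 2 SDs. *KCNN4*, the calcium-activated channel that drives potassium loss from red cells and is a known blood cell channel, was at 9.23 ± 0.827 CPM in DMSO and 10.3 ± 2.51 CPM in EZH2i. The tested member with the lowest mean over all libraries was *SCN4A*, the sodium channel of skeletal muscle, at 1.27 ± 0.262 and 1.43 ± 0.304 CPM. Tested members had a median of 43.7 reads a library, where all tested genes had 186.

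**Figure D2:**
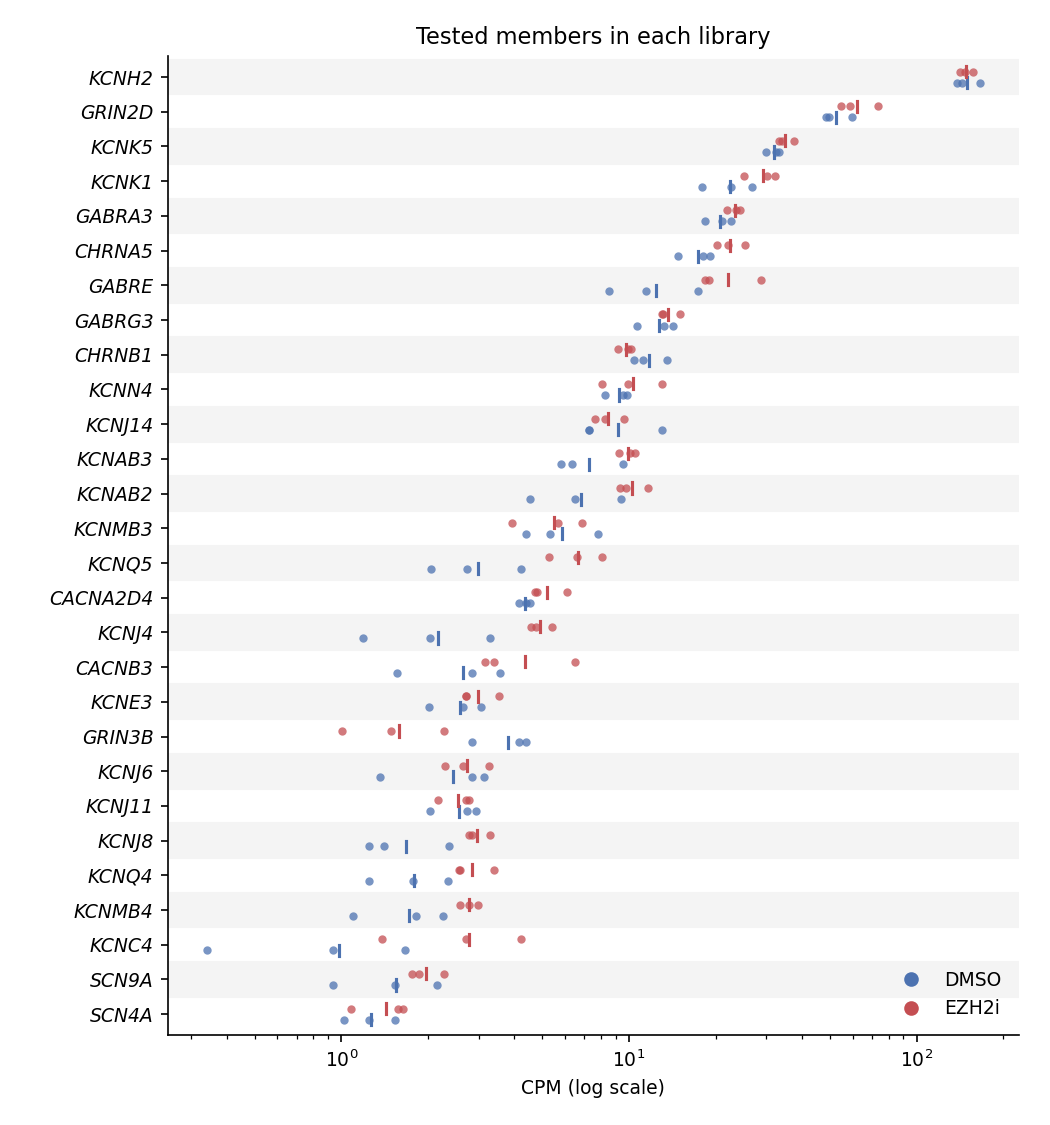
CPM on a log scale (x axis) of 28 of the 29 tested members (y axis, ordered by mean) in each library, with DMSO in blue below and EZH2i in red above, and a short line at each group mean. *KCNH2* and *GRIN2D* lie apart at the top, and the groups of *KCNQ5* and *KCNJ4* lie apart from each other.

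The comparison of the groups asks which of these genes responded to loss of EZH2 activity. With edgeR's quasi-likelihood test fitted on all 12364 tested genes and Benjamini-Hochberg adjustment, 1 member was called higher and none lower at a threshold of 0.05, where 3.34% of all tested genes were called higher and 0.922% lower. The 1 call among 29 tested members is a share of 3.45%, close to that background. At an unadjusted p under the same threshold, edgeR had 9 of the 29 members higher and 1 lower, where 10.9% of all tested genes were higher and 8.21% lower. DESeq2, fitted on every gene with a read, had 6 of 107 members higher and 1 lower at an unadjusted p, where 4.3% and 3.8% of its 26226 genes were. After adjustment it called no member, where 292 of all these genes were higher and 143 lower.

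The called gene was *KCNQ5* (ENSG00000185760; chromosome 6 of GRCh38, 72621792 to 73198853, plus strand), a pore subunit of the M-type potassium current that dampens firing in neurons and also acts in smooth muscle. It had 27, 23 and 18 reads in DMSO and 39, 64 and 46 reads in EZH2i. Every EZH2i library lay above every DMSO library, also in CPM. With means of 3.0 ± 1.11 CPM in DMSO and 6.65 ± 1.40 CPM in EZH2i (SD, n = 3 each), *KCNQ5* rose by a log2 change of 1.18 with a standard error of 0.299 (edgeR adjusted p = 0.0333). The call was lost without DMSO replicate 2 (edgeR adjusted p = 0.125), DMSO replicate 3 (0.132), EZH2i replicate 2 (0.108) or EZH2i replicate 3 (0.0564), and with DESeq2 (adjusted p = 0.0691), while over all 11 alternatives the adjusted p ran from 0.00285 to 0.132 and the log2 change from 0.96 to 1.48. With 3 values against 3, the smallest p of an exact permutation test for 1 gene is 0.10, and the call therefore rests on the spread estimated across genes.

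The genes around *KCNQ5* were at or near 0. The nearest protein-coding gene to its left, *RIMS1*, a protein of the presynaptic release site, lay 218642 bases away and had 1 read in all, in DMSO replicate 1. The gene to its right, which has no symbol, and the antisense transcript *KCNQ5-AS1* had no read, and *KCNQ5-DT*, which starts on the other strand near its promoter, had 1 read each in EZH2i replicates 1 and 3. Both antisense transcripts overlap exons of *KCNQ5*, and the strand setting of the counting is not given in the sources used here, so that reads in the shared bases cannot be told apart. *KNOP1P4*, a pseudogene within *KCNQ5*, had 7 reads in EZH2i replicate 3 and none elsewhere. The RefSeq promoter of *KCNQ5* (GRCh38.p14, chr6:72621814-72622113, plus strand, 250 bases before to 50 after the start) is shown because it belongs to the single gene that passed the test, with each CG in capitals, the dinucleotide that is dense at promoters under Polycomb control.
KCNQ5: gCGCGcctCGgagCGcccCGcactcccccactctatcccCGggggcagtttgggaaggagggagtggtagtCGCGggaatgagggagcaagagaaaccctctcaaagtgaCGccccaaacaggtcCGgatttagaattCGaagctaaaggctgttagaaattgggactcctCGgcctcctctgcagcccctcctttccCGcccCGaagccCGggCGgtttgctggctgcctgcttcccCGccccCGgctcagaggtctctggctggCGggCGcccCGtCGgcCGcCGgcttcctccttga
The printed bases lie within the bounds of *KCNQ5* given above, since the GENCODE start is further upstream than the RefSeq start. This stretch holds 24 CG, read on 1 strand since CG is its own complement. Of 35116 promoters of the same length, 66.1% hold fewer, the median is 14 and 96.0% hold at least 1. An entry existed for 133 of the 186 members, and the members were not compared as a set.

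Among the other potassium channel pore subunits, *KCNC4* (ENSG00000116396), a fast voltage-gated channel of neurons and muscle, had the highest fitted log2 change of all tested members, 1.48 with a standard error of 0.516, and did not pass the test (edgeR adjusted p = 0.116), with a range of 0.0308 to 0.341 over the 11 alternatives, of which 1, the fit without a filter on low counts, passed. Its reads were 6, 14 and 3 in DMSO and 31, 11 and 19 in EZH2i. EZH2i replicate 2 fell among the DMSO libraries, so the groups overlapped. The inward rectifier *KCNJ4* (ENSG00000168135), found in brain and heart, had 13, 10 and 29 reads in DMSO and 35, 43 and 32 in EZH2i. Its groups did not overlap, and its log2 change of 1.16 (standard error 0.340) missed the threshold (edgeR adjusted p = 0.0642) but passed it without DMSO replicate 3 (0.0396), without a filter on low counts (0.0163) and with the replicate block (0.0393), with a range of 0.0163 to 0.24 over the 11 alternatives.

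*KCNJ8* (ENSG00000121361), which forms the pore of ATP-sensitive potassium channels of blood vessels, had 9, 20 and 11 reads in DMSO and 21, 22 and 23 in EZH2i. The EZH2i libraries were close together just above the highest DMSO library, and the log2 change was 0.81 (standard error 0.360, edgeR adjusted p = 0.230). *KCNJ11*, the pore of the same kind of channel in pancreatic beta cells, had means of 2.57 ± 0.479 and 2.55 ± 0.336 CPM, and *KCNJ14*, another inward rectifier, 9.16 ± 3.31 and 8.48 ± 1.01 CPM (SD, n = 3 each), with overlapping groups. Exons of *KCNJ14* overlap *GRWD1* on the same strand, and those of *KCNJ4* and *KCNJ8* each overlap an antisense transcript, so that the source of their reads is uncertain to that extent.

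None of the auxiliary potassium channel subunits passed the test. The cytosolic beta subunits *KCNAB2* and *KCNAB3* had log2 changes of 0.57 and 0.47 (edgeR adjusted p = 0.198 and 0.25). *KCNMB4*, a subunit that tunes calcium-activated channels in the brain, had 0.66 (edgeR adjusted p = 0.332), and its EZH2i libraries all lay above its DMSO libraries in CPM, though not by reads (22, 22 and 18 against 7, 19 and 16). *KCNMB3*, of the same family, was at 5.85 ± 1.79 and 5.49 ± 1.49 CPM, and its exons share 3403 bases with *PIK3CA* on the opposite strand. *KCNK1* had a log2 change of 0.39 (edgeR adjusted p = 0.184) and *KCNK5* one of 0.13 (edgeR adjusted p = 0.623), the latter with groups that overlapped by reads and nearly met in CPM (33.32 in EZH2i replicate 1 and 33.25 in DMSO replicate 3).

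Among the transmitter receptors, *GABRE* (ENSG00000102287), the epsilon subunit of GABA-A receptors, came nearest to the threshold. It had 73, 72 and 153 reads in DMSO and 136, 151 and 201 in EZH2i. By reads DMSO replicate 3 lay among the EZH2i libraries, but in CPM every EZH2i library was above every DMSO library, at 18.4, 19.0 and 28.8 against 11.4, 8.55 and 17.4 CPM. The log2 change was 0.82 with a standard error of 0.229 (edgeR adjusted p = 0.0525), and leaving out DMSO replicate 3 (edgeR adjusted p = 0.0225), EZH2i replicate 1 (0.0233) or EZH2i replicate 2 (0.0427) brought it past the threshold, as did dropping the filter (0.000564) and the replicate block (0.00277), with a range of 0.000564 to 0.239 over the 11 alternatives. *GABRE* hosts the microRNA genes *MIR224* and *MIR452* on its strand.

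The other tested GABA-A subunits had smaller differences. *GABRA3*, a subunit that binds GABA together with a beta subunit, had 135, 155 and 199 reads in DMSO and 162, 193 and 165 in EZH2i, and *GABRG3* had 85, 120 and 94 against 97, 103 and 105. Both pairs of groups overlapped, with log2 changes of 0.17 and 0.11 (edgeR adjusted p = 0.552 and 0.786). The beta subunits *GABRB1* and *GABRB2*, of a class that most GABA-A receptors contain, never exceeded 3 reads in a library.

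*GRIN3B* (ENSG00000116032), a glycine-binding NMDA receptor subunit of motor neurons, was the member with the lowest log2 change. It had 28, 35 and 25 reads in DMSO and 11, 18 and 7 in EZH2i. Every EZH2i library lay below every DMSO library, and the log2 change of -1.22 (standard error 0.365) did not pass the test (edgeR adjusted p = 0.0700). It passed without a filter on low counts (0.0259) and with the replicate block (0.0474), with a range of 0.0259 to 0.215 over the 11 alternatives. It shares 85 exonic bases with *TMEM259* on the opposite strand. *GRIN2C*, a cerebellar NMDA receptor subunit, had 0, 1 and 7 reads in DMSO and 2, 1 and 3 in EZH2i and was not tested.

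The nicotinic subunits that were tested had no call. *CHRNA5* (ENSG00000169684), an accessory subunit of neuronal receptors, had 18.1, 14.8 and 19.1 CPM in DMSO and 25.3, 22.1 and 20.2 CPM in EZH2i, and *CHRNB1*, the beta subunit of the muscle receptor, had 13.6, 11.2 and 10.4 CPM in DMSO and 10.2, 9.96 and 9.17 CPM in EZH2i. Neither pair of groups overlapped, and the log2 changes were 0.38 (standard error 0.155, edgeR adjusted p = 0.183) and -0.26 (standard error 0.184, edgeR adjusted p = 0.482). Exons of *CHRNA5* overlap 198 bases of *CHRNA3* on the other strand, a gene with no read, and 832 bases of a noncoding transcript there. Those of *CHRNB1* overlap 630 bases of a noncoding transcript on the same strand. The source of the reads of both genes is uncertain to that extent. *CHRNA10*, a subunit of inner ear hair cells, had 7, 2 and 4 reads in DMSO and 2, 3 and 7 in EZH2i.

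Sodium and calcium channel genes were low throughout. The pore subunits *SCN9A*, of pain-sensing neurons, and *SCN4A* had log2 changes of 0.31 and 0.17 (edgeR adjusted p = 0.730 and 0.870), and *SCN9A* shares exons with *SCN1A-AS1* on the other strand. Of the calcium channel auxiliary subunits, *CACNB3* had 10, 30 and 25 reads in DMSO and 48, 27 and 22 in EZH2i, with EZH2i replicate 1 far above the rest and a log2 change of 0.68 (edgeR adjusted p = 0.314). *CACNA2D4*, a subunit of retinal channels, was at 4.36 ± 0.193 and 5.20 ± 0.772 CPM (SD, n = 3 each), and *CACNA2D2*, its neuronal relative, had between 3 and 11 reads in every library and was not tested.

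**Figure D3:**
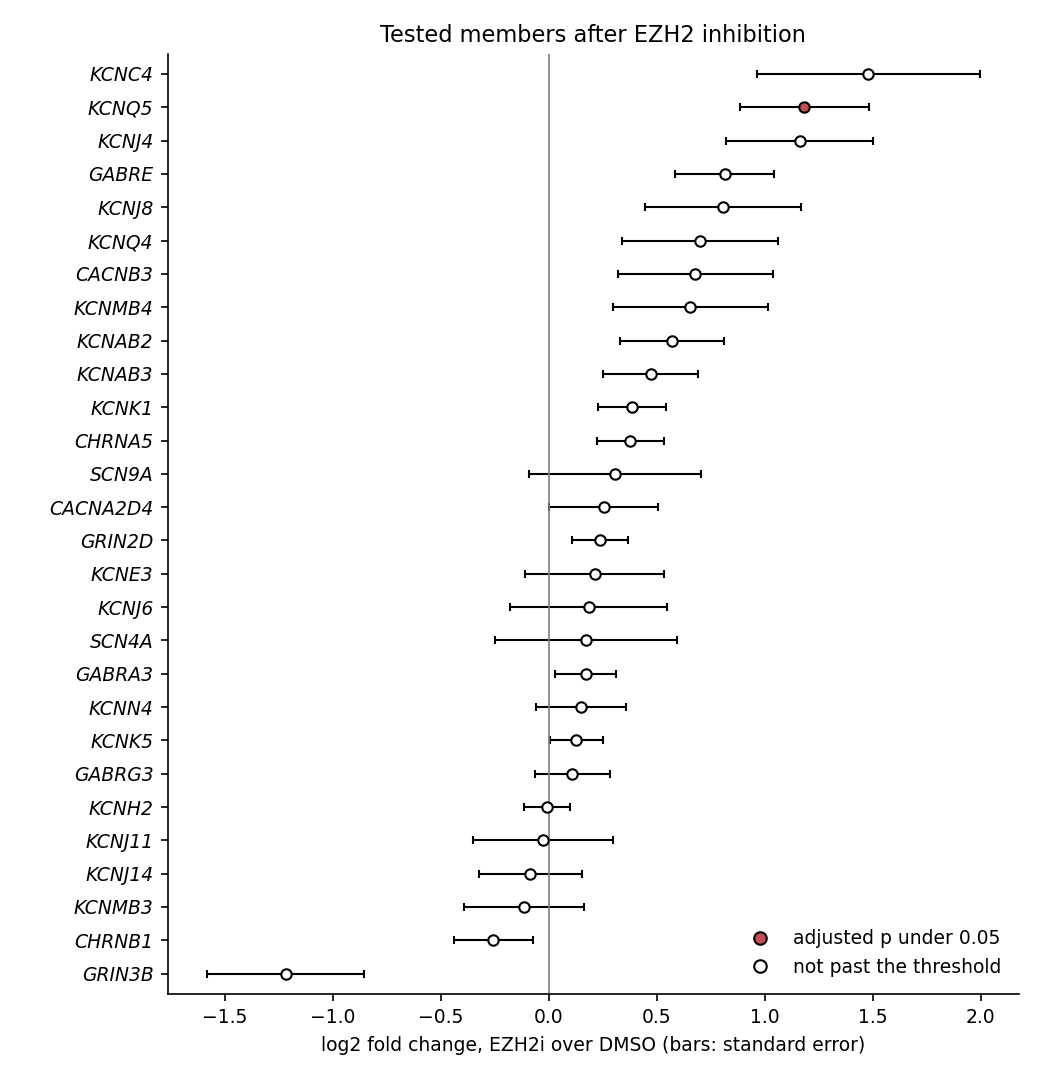
Log2 fold change of EZH2i over DMSO (x axis) for 28 of the 29 tested members (y axis, ordered by it), with bars of 1 standard error. The filled point is *KCNQ5*, the single member past an adjusted p of 0.05, 22 points lie above 0 and *GRIN3B* lies apart at -1.22.

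Over the tested members, the median log2 change was 0.26, and 23 of 29 (79.3%) were above 0, where all tested genes had a median of 0.00 and 50% above 0. In CPM every EZH2i library lay above every DMSO library for 9 tested members (31%), where this held for 13.3% of all tested genes, and below for 2 (6.90%), where it held for 11.1%. The tested members were lower in level than all tested genes, with medians of 43.7 and 186 reads a library. No tested genes of like level were compared, so these shares do not set the members apart from low genes in general. The expression filter can pass a gene through the group in which it is higher, and these counts are a description of the members that passed, not of all 186. With a filter on the mean over all libraries, which does not see the groups, 30 members were tested, 23 were above 0 and the median was 0.25, where all 12284 genes had 49.9% above 0.

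No member was switched on or off by the limits set here. None went from at most 3 reads in each DMSO library to 10 or more in an EZH2i library, a change that 98 of the 26226 genes with a read (0.374%) made, and none made the opposite change, which 28 genes (0.107%) made. Both changes were rare among all genes, so that 0 of 107 members with a read does not set the members apart. The first count also depends on the limit of 10 reads. *CACNA1A*, the pore of the calcium channel that triggers transmitter release at many synapses, had 1 read in each DMSO library and 9, 6 and 7 reads in EZH2i. Its means were 0.13 CPM in DMSO and 0.99 CPM in EZH2i, a large change at a low level. *GABRQ* also reached 9 reads. Of the 78 members with reads that were not tested, 8 (10.3%) had every EZH2i library above every DMSO library and none had every one below, next to 11.7% and 1.32% of the 4166 other protein-coding genes of this kind. By CPM these 8 were *CACNA1A*, *CACNB1*, *KCNA2*, *KCND1*, *KCND3*, *KCNK9*, *SCN8A* and *SCN11A*, named here after their values were seen. By reads the groups tied for *KCND1* (1, 6 and 4 in DMSO, 6, 8 and 9 in EZH2i). They also tied for *SCN11A* (0, 1 and 1 in DMSO, 1, 5 and 3 in EZH2i). *SCN8A*, a sodium channel of central axons, had 1, 5 and 4 reads in DMSO and 10, 9 and 7 in EZH2i, and *KCNK9*, an acid-sensitive background channel, had 1, 4 and 10 against 16, 9 and 17. By reads DMSO replicate 3 of *KCNK9* lay above EZH2i replicate 2, and in CPM both were at 1.135 to the digits given, so that its groups can hardly be called apart. None of the 8 passed the expression filter of the main fit, and none was called by DESeq2 or by edgeR without a filter on low counts.

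The families can also be read as sums. The summed level of all 186 members was 437.1, 409.3 and 414.8 CPM in DMSO and 501.3, 459.2 and 494.1 CPM in EZH2i. Every EZH2i library was above every DMSO library, with means of 420.4 ± 14.8 and 484.9 ± 22.5 CPM (SD, n = 3 each). The difference was 64.5 CPM, a ratio of 1.15, or 59.9 CPM without EZH2i replicate 3. With each library left out in turn, it ran from 56.25 CPM (without EZH2i replicate 1) to 77.3 CPM (without EZH2i replicate 2). Over the 108 members whose exons overlap no other gene, the difference was 36.2 CPM, a ratio of 1.12. There the groups nearly met, at 325.0 CPM in DMSO replicate 1 and 326.3 CPM in EZH2i replicate 2. The KCN genes summed to 268.9 ± 18.3 and 300.2 ± 9.10 CPM, the GABR genes to 46.6 ± 4.35 and 60.3 ± 7.48 CPM and the CACN genes to 8.88 ± 1.23 and 13.5 ± 2.06 CPM. The GABR and CACN sums had no overlap between groups. Both rest on few genes, since 15 of 19 GABR and 21 of 26 CACN genes had at most 3 reads in every library. Of the tested GABR genes, only *GABRE* had groups that did not overlap, so that the GABR sum does not describe the family as a whole. The KCN groups nearly met, at 289.6 CPM in DMSO replicate 1 and 289.9 CPM in EZH2i replicate 2, and the glutamate receptor, nicotinic and SCN sums overlapped.

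The 157 untested members, most of them silent, summed to 9.54, 13.8 and 15.1 CPM in DMSO and 21.9, 16.8 and 24.1 CPM in EZH2i, a ratio of means of 1.64. The 9103 untested other protein-coding genes summed to 828.1 ± 50.8 and 1277 ± 68.7 CPM, a ratio of 1.54, so that the ratio of the members was close to that of low genes in general. At least 1 read was found for 55, 65 and 64 members in DMSO and for 74, 66 and 73 in EZH2i. Rarefied to the depth of the smallest library, the expected numbers were 58.4 ± 2.95 and 68.5 ± 5.13 members (SD, n = 3 each), and for the other protein-coding genes 12400 ± 42.7 and 12950 ± 86.0. These sets differ in level, with 72.6% of the members and 38.0% of the other genes at most at 3 reads in every library. The size of their gains in detection therefore cannot be compared.

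**Figure D4:**
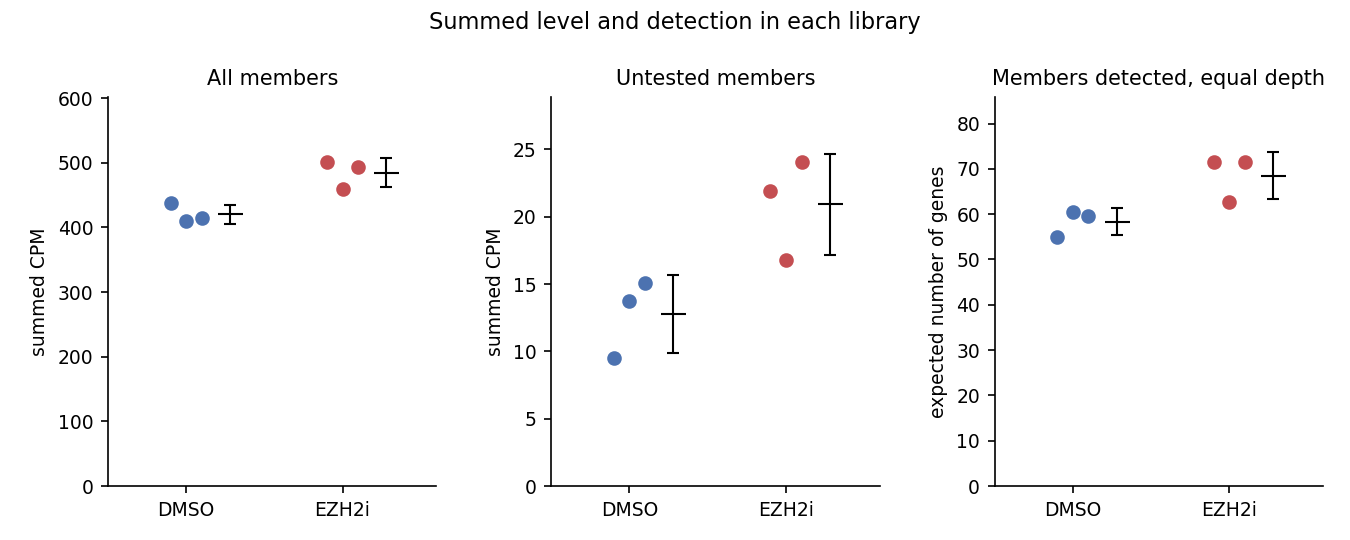
Summed CPM of all members (left) and of the untested members (middle), and the expected number of members with at least 1 read at the depth of the smallest library (right), per library (points) with the group mean and SD (bars). In each panel the EZH2i libraries lie above the DMSO libraries.

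Most marker lists of other cell types were also higher in the EZH2i libraries. Of 15 neuronal identity genes, 12 had at most 3 reads in every library and 8 had none, *SNAP25*, *STMN2*, *DCX* and *NEFL* among them. The summed level of this list was 2.97, 3.68 and 4.77 CPM in DMSO and 6.64, 6.43 and 5.87 CPM in EZH2i, mostly *SYP*, a synaptic vesicle protein and the only one tested (2.42 ± 0.561 to 4.68 ± 0.365 CPM, log2 change 0.93, edgeR adjusted p = 0.0875). *SYN1*, the next in abundance, was at 1.29 ± 0.581 and 1.12 ± 0.132 CPM, with overlapping groups. The 6 fibroblast markers summed to 1.41, 1.90 and 2.84 CPM in DMSO and 5.82, 6.56 and 9.02 CPM in EZH2i. This was mostly *COL1A1*, which rose (log2 change 1.91, edgeR adjusted p = 0.00424), while *LUM* had no read and *PDGFRB* had 1.

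The 5 monocytic markers summed to 17.8, 15.3 and 12.3 CPM in DMSO and 24.5, 22.2 and 22.1 CPM in EZH2i, mostly *LYZ* (log2 change 0.62, edgeR adjusted p = 0.0426), with *CSF1R* at 0. The call of *LYZ* was lost with DESeq2 (adjusted p = 0.0882) and without any 1 of the 6 libraries (edgeR adjusted p from 0.053 to 0.16). The 6 lymphoid markers summed to 63.2, 66.7 and 75.4 CPM in DMSO and 104.8, 85.9 and 89.7 CPM in EZH2i, mostly *CD3D* (log2 change 0.46, edgeR adjusted p = 0.0309), with *MS4A1* at 0. The call of *CD3D* was lost without DMSO replicate 1, 2 or 3 (edgeR adjusted p = 0.148, 0.12 and 0.051) or EZH2i replicate 1 (0.0519), with a range of 0.0169 to 0.148 over the 11 alternatives. The 8 skeletal muscle markers summed to 0.313, 1.07 and 0.908 CPM in DMSO and 0.813, 1.51 and 1.58 CPM in EZH2i, with overlapping groups, *MYOD1* and *MYOG* at 0 and *MYH3* the most abundant. The part of these markers in the higher sums of channel genes was not tested.

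The K562 identity list stayed high in every library, from 1845 to 2031 summed CPM, with *GYPB* the most abundant. *HBE1*, the embryonic beta-like globin, was near 0, with 1 to 6 reads a library, and the other 13 genes of the list were tested. Of these, the globins *HBZ* (log2 change 1.15, edgeR adjusted p = 6.14e-05) and *HBG2* (0.58, edgeR adjusted p = 0.0251) rose and none fell, where 3.34% of all tested genes were called higher. The call of *HBG2*, whose exons overlap other genes, was lost without DMSO replicate 1, 2 or 3 (edgeR adjusted p = 0.0724, 0.138 and 0.0624), with a range of 0.000395 to 0.138. *HBG1*, its near-identical copy, was at 11.2 ± 1.75 CPM in DMSO and 8.51 ± 3.95 CPM in EZH2i (SD, n = 3 each; log2 change -0.39, edgeR adjusted p = 0.444), and how reads were divided between the copies is uncertain. *HBZ* overlaps *HBM* on its strand.

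Several members lie close together on a chromosome, which allows neighbors to be compared. Clusters were set by distance alone, and some join genes of different families, such as *CHRND* and *CHRNG* with *KCNJ13*. Joining members less than 1000000 bases apart and keeping groups of at least 3 gave 15 clusters with 50 members, of which 38 never exceeded 3 reads in a library and 9 were tested. In 7 clusters every member was silent, and 5 clusters had exactly 1 tested member. *CHRNA5* was tested beside *CHRNA3*, with no read, and *CHRNB4*, with 1 read in EZH2i replicate 1, although these 3 genes form a shared locus on chromosome 15 and their products assemble in the same receptors. *SCN9A* was the single tested gene of 5 sodium channel genes on chromosome 2.

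The GABA-A clusters of chromosomes 4 and 5, with 4 genes each, were silent, whereas the cluster on chromosome X had *GABRE* and *GABRA3* tested. The third gene there, *GABRQ*, which encodes the theta subunit, had 1, 1 and 2 reads in DMSO and 9, 1 and 7 in EZH2i, with overlapping groups. *KCNC4* lay beside *KCNA10*, *KCNA2* and *KCNA3*, of which only *KCNA2* had reads, 1 in each EZH2i library. *KCNK5* lay beside *KCNK17* and *KCNK16*, both of the same channel class and both without a read. *KCNQ5* lay in no cluster, and edgeR called no clustered member. Of the 9 tested, 3 (*KCNC4*, *GABRE* and *CHRNA5*) were higher at an unadjusted p under 0.05, where 10.9% of all tested genes were.

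**Figure D5:**
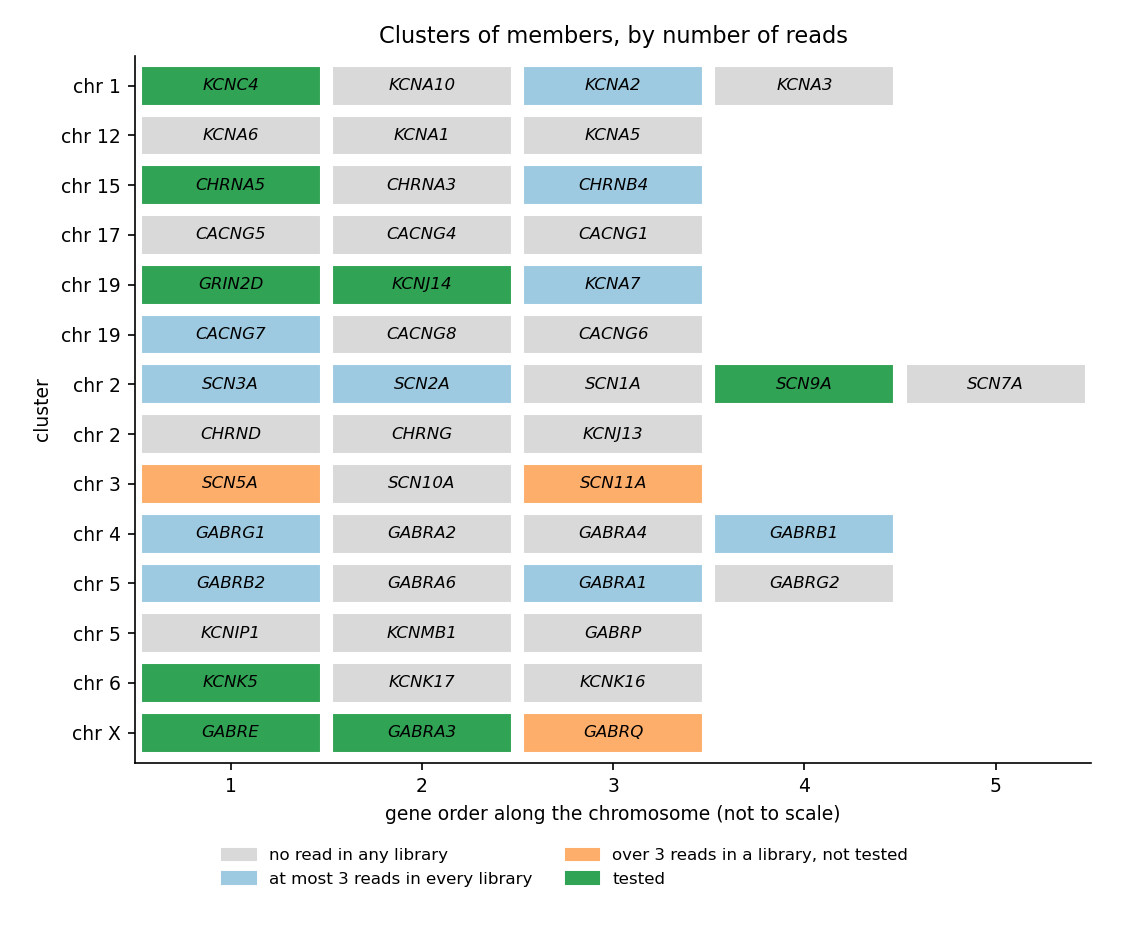
Clusters (y axis, by chromosome), 14 of the 15, with their members in chromosomal order (x axis, not to scale), colored by class of read number. The 8 green boxes are tested genes, and 7 rows hold grey and blue boxes alone.

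Genes that work with these channels were looked at as well, where 3.34% of all tested genes were called higher and 0.922% lower, and 1 call in a short list says little about the list. Of 21 genes for sodium, potassium and calcium pumps and their auxiliary subunits, which build the gradients that channels use, 9 were tested and 2 rose, the beta subunits of the sodium-potassium pump *ATP1B1* (9.88 ± 1.87 to 21.5 ± 2.41 CPM, edgeR adjusted p = 0.00153) and *ATP1B2* (29.7 ± 1.92 to 63.9 ± 2.86 CPM, edgeR adjusted p = 5.42e-05). Their log2 changes were 1.12 and 1.11, and both were past the threshold in all 11 alternatives. *ATP1B2* is the form typical of neurons and glia, and *ATP1B1* overlaps *NME7* on the opposite strand. Of 23 other ionotropic receptor genes, 14 had at most 3 reads and 7 were tested. Among them the ATP-gated channel *P2RX1*, known from platelets, rose, with 53, 68 and 80 reads in DMSO and 100, 142 and 127 in EZH2i (log2 change 0.96, edgeR adjusted p = 0.00572), the 1 call among these 7.

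Genes for store-operated calcium entry and calcium release, unlike the pore subunits of voltage-gated calcium channels, were mostly expressed. Of 15 such genes 13 were tested, and 1 of these, *ITPR1*, an intracellular calcium release channel, rose (12.5 ± 0.584 to 19.5 ± 2.68 CPM, edgeR adjusted p = 0.0333). That call was lost with DESeq2 (adjusted p = 0.0752) and without DMSO replicate 1, 2 or 3 (edgeR adjusted p = 0.109, 0.125 and 0.0771) or EZH2i replicate 1 or 3 (0.0691 and 0.0807), with a range of 0.0207 to 0.125 over the 11 alternatives. Of 29 chloride channel and related genes, 16 were tested and 1, *ANO8*, fell, from 69.1 ± 17.4 to 44.1 ± 5.97 CPM (log2 change -0.66, edgeR adjusted p = 0.0286), with groups that overlapped, at 49.1 CPM in DMSO replicate 1 and 50.9 CPM in EZH2i replicate 3. Its call was lost without DMSO replicate 2 or 3 (edgeR adjusted p = 0.158 and 0.125) or EZH2i replicate 2 (0.064), with a range of 2.98e-05 to 0.158. Exons of *ANO8* and *ITPR1* each overlap a gene on the opposite strand.

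The metabotropic transmitter receptors were also mostly silent, with 36 of 45 at most at 3 reads and 3 tested (*GABBR1*, *HTR1F* and *ADRA2C*), and edgeR and DESeq2 called none of them, with none at an unadjusted p under 0.05 in edgeR. Of 51 other cation channels 13 were tested, and of 30 receptor and channel scaffolds and chaperones 12 were tested. Neither tool called a gene of these lists, and at an unadjusted p under 0.05 edgeR had 2 higher and 1 lower in the former and 4 higher in the latter, where 10.9% of all tested genes were higher and 8.21% lower.

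The transcripts of the repressors themselves were measured as well. REST, which silences neuronal channel genes outside the nervous system, was expressed in every library, at 107.1 ± 17.5 CPM in DMSO and 105.3 ± 11.0 CPM in EZH2i (SD, n = 3 each), a log2 change of -0.03 (edgeR adjusted p = 0.939) that turned to 0.10 without DMSO replicate 2 and to 0.05 without EZH2i replicate 3. All 11 genes of the list of *REST* and its corepressors were tested, and none was called by edgeR or DESeq2 or had an unadjusted p under 0.05 in edgeR. All 12 PRC2 genes were tested as well, and none was called by either tool, with 1 higher and 1 lower at an unadjusted p under 0.05 in edgeR, where 10.9% of all tested genes were higher and 8.21% lower. *EED* had a log2 change of -0.33 (edgeR adjusted p = 0.178). GSK343 blocks the enzyme and not its transcript, so the level of *EZH2* (log2 change -0.19, edgeR adjusted p = 0.306) is no check of the treatment.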

How the data were processed

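The deposited files hold counts per Ensembl gene that the authors made from QuantSeq reads on hg38 with HTSeq 0.11.2, without normalization; the submitters' processing notes also name STAR 2.6.0c. The authors' table of fold changes and p-values from DESeq2 was not used. Rows that name no gene, 32.1% to 36.4% of listed reads, were left out. Genes were named by GENCODE version 44. The test was edgeR 4.0.16, run in R 4.3.3 (TMM, filterByExpr with a minimum count of 10, glmQLFit, glmQLFTest), two-sided, without a replicate term, and with DESeq2 1.42.0 as an alternative. The standard error is the size of the log2 fold change over the square root of F. CPM are counts per TMM-scaled library. The fit was also run on simulated counts, with a single dispersion for all genes and changes set only in genes with more reads. That run does not speak for members with few reads. Replicates of a group differed by more than sampling noise (chi-square per degree of freedom 4.25 to 11.5). A floor of 3 reads covers counting error only.

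Members named were those called, the 3 most abundant of each family, the 5 at either end by log2 fold change, and any switched on or off; with *EZH2*, *EED*, *SUZ12*, *REST* and called genes of the 15 other lists. Results for 2 genes are not reported here. Further genes were named after their values were seen. The members and lists were chosen with earlier results of these data known. Alternatives were other size factors, DESeq2, filters, a replicate block, plain CPM, rarefaction and leaving out each library.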

Additional observations from a re-analysis of the deposited data

How the results depend on the processing

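Among the members, edgeR called *GABRE*, *KCNC4*, *KCNJ4* and *KCNQ5* higher (4) and *GRIN3B* lower (1) without a filter on low counts. In that fit 579 genes in all were higher and 349 lower. DESeq2 called 0 members higher and 0 lower, with 292 genes in all higher and 143 lower. With the replicate number as a block, 3 members were higher (*GABRE*, *KCNJ4* and *KCNQ5*) and 1 was lower (*GRIN3B*), with 450 and 149 genes in all; correlations of same-numbered libraries were -0.051, -0.018 and -0.017, which give no sign of pairing but do not exclude it. Leaving out each library gave 0 to 2 members higher, 180 to 412 genes higher and 20 to 124 lower in all. Over these fits, log2 fold changes that turned sign ran from -0.0091 to 0.21 (*GABRG3*), -0.058 to 0.072 (*KCNH2*), -0.15 to 0.084 (*KCNJ11*), -0.23 to 0.23 (*KCNJ14*), -0.30 to 0.16 (*KCNMB3*), -0.11 to 0.011 (*SUZ12*) and -0.14 to 0.10 (*REST*), all far from the threshold. The summed CPM difference was 36.2 over the 108 members whose exons overlap no other gene. The ratio of group means there was 1.12, next to 1.15 for all 186 members. On plain totals the difference for all members was 74.4. The cause was not tested. The 157 untested members had too few reads to pass the filter.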
